A study of Mus musculus with 4 samples.

Results

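The 6 genes described here encode fatty acyl and sphingolipid desaturases, the enzymes that place double bonds in the carbon chains of lipids. They were Scd1, Scd2, Fads1, Fads2, Fads3 and Degs1, found in the count table by the Ensembl ID of each symbol, 6 of 47729 gene rows. RNA came from CD4 T cells of the spleen of C57BL/6 mice that were turned into induced regulatory T (iTreg) cells in culture. All cells were activated through CD3 and CD28 per the study's methods and received IL-2 at 100 U/mL and TGF-β at 5 ng/mL, with antibodies at 5 µg/mL to block IFN-γ and, at the same dose, IL-4. One group was treated with FeSO4 (50 µM) for 4 days and the other with PBS for 4 days (Mock), with 2 libraries per group. The mice were 6 to 8 weeks old. The methods describe pairs of samples from independent experiments but not which replicate numbers belong together, so the p-values measure the spread between these 4 libraries only. The cells had no genetic change, and iTreg cells made in culture are a model of, not a sample of, tissue Treg cells.

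Desaturases of animal cells sit in the membrane of the endoplasmic reticulum. They hold a pair of iron atoms bound by histidines, use molecular oxygen, and take electrons from NADH through cytochrome b5 reductase and cytochrome b5. Stearoyl-CoA desaturases (Scd1, Scd2) make monounsaturated fatty acids such as oleate from saturated ones. Fads2 and Fads1 act in turn, with an elongation step between them, in the synthesis of polyunsaturated fatty acids such as arachidonate from dietary linoleate. Fads3 resembles them in sequence and acts on sphingoid bases, and Degs1 converts dihydroceramide to ceramide. Scd1, Scd2, Fads1 and Fads2 are known targets of the SREBP transcription factors, which switch on lipid synthesis. The members were chosen with the FeSO4 and Mock values of these libraries known. Their changes are therefore given as a description, with calls and intervals but without printed p-values. These changes serve as no evidence for a change of desaturases as a class.

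Of the 6 genes, 5 lie on chromosome 19 in RefSeq's GRCm38 annotation. Fads3 (19:10040855-10060113, plus strand), Fads2 (19:10062765-10101503, minus strand) and Fads1 (19:10182877-10196874, plus strand) form 1 cluster of 156 kb. Fads3 and Fads2 end 2.65 kb apart, and the ends of Fads2 and Fads1 that face each other are 81.4 kb apart. Scd2 (19:44293676-44306864, plus strand) and Scd1 (19:44394450-44407709, minus strand) lie 87.6 kb apart in another part of the chromosome. Degs1 is on chromosome 1 (1:182275964-182282854, minus strand). Their Ensembl IDs are ENSMUSG00000037071 (Scd1), ENSMUSG00000025203 (Scd2), ENSMUSG00000010663 (Fads1), ENSMUSG00000024665 (Fads2), ENSMUSG00000024664 (Fads3) and ENSMUSG00000038633 (Degs1).

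RefSeq promoter windows (GRCm38.p6, 250 bases before to 50 after the start) were at hand for 3 members, Fads2, Fads3 and Degs1. They are shown because they were the windows at hand, to give the sequence around these starts. The start used for Fads2 is the outer end of the gene given above, while those of Fads3 and Degs1 are inner starts, 693 and 659 bases into the gene, so positions in them are counted from an inner start. Capitals mark matches on either strand to a CCAAT box (CCAAT), a GC box (GGGCGG), an E-box (CACGTG) and the core bound by HIF (ACGTG), which the E-box contains on both strands. The Fads2 window is chr19:10101454-10101753 on the minus strand, that of Fads3 chr19:10041298-10041597 on the plus strand and that of Degs1 chr1:182282146-182282445 on the minus strand.

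Fads2: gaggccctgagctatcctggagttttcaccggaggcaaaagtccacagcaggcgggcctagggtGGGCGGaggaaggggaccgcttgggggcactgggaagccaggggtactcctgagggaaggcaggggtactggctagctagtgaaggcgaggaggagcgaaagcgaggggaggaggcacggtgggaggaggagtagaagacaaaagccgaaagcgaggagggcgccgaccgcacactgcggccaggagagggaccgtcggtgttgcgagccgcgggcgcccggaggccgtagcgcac

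Fads3: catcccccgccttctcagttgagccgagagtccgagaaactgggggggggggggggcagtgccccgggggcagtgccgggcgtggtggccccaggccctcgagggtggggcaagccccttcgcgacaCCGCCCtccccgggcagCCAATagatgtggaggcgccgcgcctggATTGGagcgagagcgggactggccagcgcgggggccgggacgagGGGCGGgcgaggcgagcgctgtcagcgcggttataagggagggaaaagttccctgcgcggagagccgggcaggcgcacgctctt

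Degs1: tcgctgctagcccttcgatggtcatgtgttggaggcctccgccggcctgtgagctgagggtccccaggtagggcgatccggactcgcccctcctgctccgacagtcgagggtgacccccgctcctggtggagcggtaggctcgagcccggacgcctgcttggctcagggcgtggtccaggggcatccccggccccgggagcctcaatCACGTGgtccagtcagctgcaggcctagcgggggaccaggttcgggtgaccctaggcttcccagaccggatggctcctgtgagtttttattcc

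The Fads2 window held 1 GC box, at -186 to -181 from the start. The Fads3 window held CCAAT boxes at -106 to -102 and -78 to -74 and GC boxes at -123 to -118 and -34 to -29. The Degs1 window held 1 E-box at -43 to -38. A sterol regulatory element written as TCACNCCAC was in none of these 3 windows. Other spellings and sequence outside the windows were not searched, so no absence from these genes can be concluded. Among all 32851 promoter windows of this length, 1.24% held that element, 37.4% a CCAAT box, 35.7% a GC box, 7.15% the E-box and 19.6% the HIF core. G and C made up 67% of the Fads2 window, 73% of the Fads3 window and 67.3% of the Degs1 window.

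The libraries held 35183187 to 40859178 reads in gene rows. Levels are given as CPM, that is, counts brought to a common library size after TMM scaling. A gene with no count in a library could still have had up to 3, or 0.0717 to 0.0876 CPM, a limit that covers counting error only. CD4 T cell markers (Cd3e, Cd3g, Cd4, Trac) were high in every library, with a summed level of 1835 and 1739 CPM in Mock, against 2066 and 2121 CPM in FeSO4. Some markers moved with the treatment. Foxp3, the defining factor of Treg cells, was lower in FeSO4 (587 and 693 CPM in Mock, 376 and 472 CPM in FeSO4), as was Ikzf2, a marker of part of the Treg cells (56.3 and 80.2, then 33.3 and 45.8 CPM). The groups overlapped for the Treg markers Il2ra and Ctla4 and for the sum of the 4 Treg markers (2174 and 2507 CPM in Mock, 2028 and 2247 CPM in FeSO4). Of 3 erythroid markers, the globin gene Hba-a1 was higher in FeSO4 (24.5 and 19.6, then 37.5 and 32.5 CPM), while Hbb-b1 and Alas2 had at most 16 counts. The 2 CD8 T cell markers summed to 9.81 and 9.04 CPM in Mock, against 9.95 and 11 CPM in FeSO4, and the 5 myeloid markers to 6.24 and 2.49 CPM, against 1.84 and 2.35 CPM. The part of these shifts in the desaturase values was not tested. NK cell markers (Ncr1, Klrb1c) had 0 counts. Mock replicate 1 stood apart in traces of other cells, with 164 counts of the myeloid marker Lyz2 and 40 counts over the 4 adipocyte markers, against 0 to 8 and 0 to 1 in the other libraries. Of 13732 genes tested by edgeR's quasi-likelihood test, 1455 rose and 1221 fell with FeSO4 at an adjusted p under 0.05 (939 and 1748 with library size only in place of TMM).

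All 6 desaturases passed the filter on low counts. Transcripts of both stearoyl-CoA desaturases and of Fads1 and Fads2 were more abundant in FeSO4, while the Degs1 values of the groups overlapped. Of the 6, 4 were called higher (adjusted p under 0.05) and 0 lower, where 10.6% and 8.89% of all tested genes were. Both FeSO4 libraries lay above both Mock libraries for 5 of the 6, against 30.1% of all tested genes, and below both for none, against 29.4%. Since the members were picked on this contrast, nothing is read from these counts. The fitted log2 fold changes ran from 0.05 to 2.66 with a median of 1.43, and the median over all tested genes was -0.00045. In bulk RNA, more cells that express a gene and more transcript per cell cannot be told apart.

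**Figure D1:**
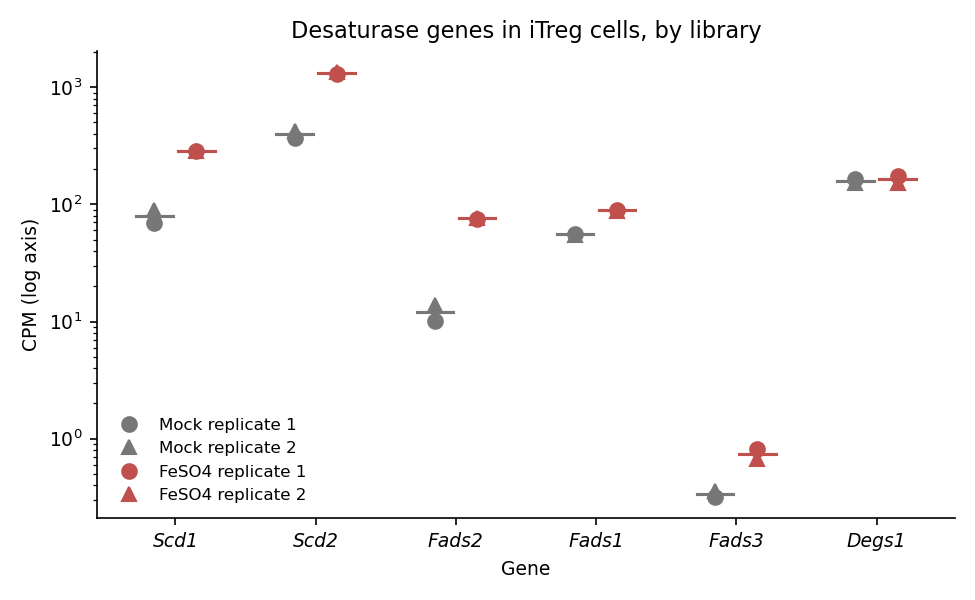
Level of each desaturase gene in the 4 libraries, in CPM on a log axis (circles, replicate 1; triangles, replicate 2; grey, Mock; red, FeSO4; horizontal bars, group means). The FeSO4 points stand above the Mock points for each gene but Degs1, and Fads3 lies below 1 CPM in every library.

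Scd2, the stearoyl-CoA desaturase most abundant in these cells, was at 366 and 425 CPM in Mock, against 1285 and 1347 CPM in FeSO4. The groups were far apart relative to the spread within each (395 ± 41.9 and 1316 ± 44.4 CPM, SD, n = 2 each). The log2 fold change was 1.73 ± 0.07 (SE), or 3.33-fold. Scd1, the enzyme best known from liver and fat, was at 69.7 and 88.6 CPM in Mock, against 288 and 286 CPM in FeSO4. The FeSO4 libraries differed little from each other, and the higher of the Mock libraries was 1.27 times the lower. The log2 fold change was 1.86 ± 0.09 (SE), or 3.62-fold. In both genes, Mock replicate 1 had the lowest value of the 4 libraries, so the ratio was larger between the libraries numbered 1 (log2 2.04 for Scd1 and 1.81 for Scd2) than between those numbered 2 (1.69 and 1.66).

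Scd1 and Scd2 are similar enough that some reads fit both. Of the 50-base windows of the annotated transcript, 4.66% in Scd1 and 3.79% in Scd2 also occurred in another gene of the family (Scd1, Scd2, Scd3 or Scd4). Reads that aligned to more than 1 place stand in a row of their own, so reads lying wholly in such stretches may be missing from the counts of both genes. Of the 6 members, Scd2 alone has exons that overlap another annotated gene (AC123853.2). Reads there may stand in the row of ambiguous reads (3.78 to 3.91% of a library) and be missing from the Scd2 count. Scd3 and Scd4, the other members of the family, were close to the limit of detection. Scd3 had 2 and 1 counts in Mock and 4 in each FeSO4 library, and was not tested. Scd4 had 6 and 21 counts in Mock and 15 in each FeSO4 library, so the groups overlapped.

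Fads2, which starts the desaturation of linoleate, showed the largest fold change of the 6, while the gain in CPM was larger for Scd2 (921) and Scd1 (208) than for Fads2 (63.8). It was at 10.1 and 14 CPM in Mock, against 75 and 76.8 CPM in FeSO4 (12 ± 2.75 and 75.9 ± 1.25 CPM, SD, n = 2 each). The log2 fold change of 2.66 ± 0.12 (SE), or 6.3-fold, was the 16th highest among the 13732 tested genes. The Mock libraries differed 1.39-fold from each other, so the log2 ratio was 2.89 between the libraries numbered 1 and 2.45 between those numbered 2.

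Fads1, which acts after Fads2 in the same pathway, changed less. It was at 56.2 and 55 CPM in Mock, against 88.8 and 88.4 CPM in FeSO4, so that replicates nearly coincided in both groups. The log2 fold change was 0.67 ± 0.07 (SE), or 1.59-fold, with log2 ratios of 0.66 and 0.68 between the same-numbered libraries. As a result of the unequal changes, Fads1 had 5.58 and 3.94 times as many counts as Fads2 in the Mock libraries, and 1.18 and 1.15 times as many in the FeSO4 libraries. The ratio of Scd2 to Scd1 counts moved little by comparison, from 5.25 and 4.8 in Mock to 4.47 and 4.71 in FeSO4.

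Fads3, the neighbour of Fads2 in the cluster, was at a low level throughout. It had 13 and 15 counts in Mock and 28 and 25 in FeSO4 (0.32, 0.359, 0.817 and 0.675 CPM). Both FeSO4 libraries lay above both Mock libraries, but the counts were too few for a firm value. The log2 fold change was 1.13 ± 0.58 (SE), its 95% interval from the fit ran from -0.11 to 2.37, and Fads3 was not called. Of the transcript windows of Fads3, 0.155% were shared with Fads2.

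Degs1, the ceramide-forming desaturase, was at 164 and 152 CPM in Mock, against 175 and 151 CPM in FeSO4. The groups overlapped, and each replicate 1 was higher than its replicate 2. The log2 fold change was 0.05 ± 0.08 (SE), with a 95% interval of -0.12 to 0.21. Its sign turned with library size only in place of TMM, without Mock replicate 2 and without FeSO4 replicate 1.

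**Figure D2:**
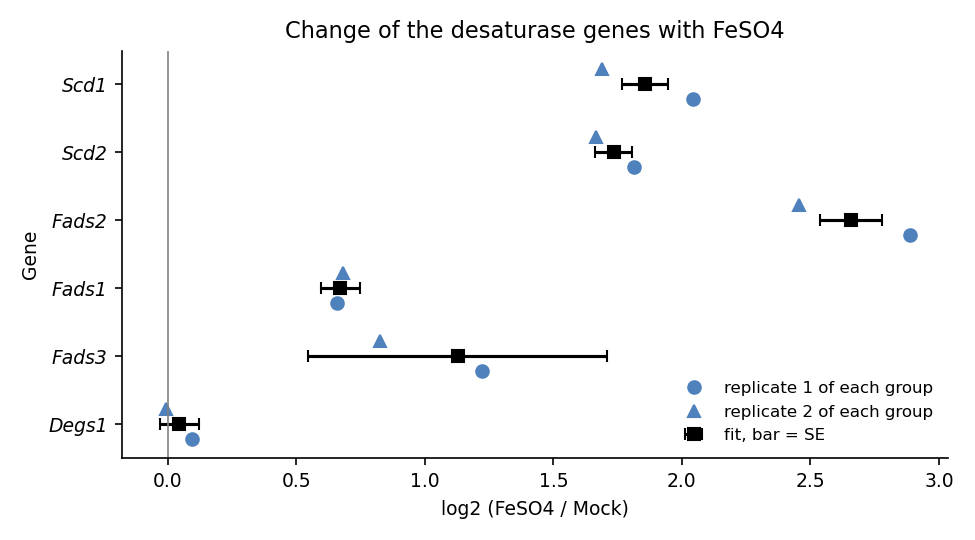
Change of each desaturase gene as log2 of FeSO4 over Mock (black squares, fitted value with its SE; blue circles and triangles, ratio of the libraries numbered 1 and of those numbered 2, from log2 CPM with a prior count of 2). Fads2 lies farthest to the right at 2.66, Degs1 lies at 0.05, and the bar of Fads3 is the widest.

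Divided by exon length, levels can be compared between genes. In Mock, Scd2 (67.1 and 77.9 CPM per kb) was first and Degs1 (63.3 and 58.7) second. Scd1 (14.4 and 18.3) and Fads1 (16.3 and 15.9) followed and overlapped, then Fads2 (6.68 and 9.26) and Fads3 (0.098 and 0.11). In FeSO4, Scd2 (236 and 247 CPM per kb) was far above the rest. Degs1 (67.6 and 58.4) and Scd1 (59.5 and 59.1) could not be ordered, and Fads2 (49.7 and 50.9) stood above Fads1 (25.7 and 25.6) on this gene model. Fads3 stayed last at 0.25 and 0.207. The gene model used for Fads2 spans 1399 bases less than that of RefSeq, and that of Fads3 1135 bases less, so their values per kb may be too high relative to the other members. With those bases counted as exon, a length chosen after seeing the data, Fads2 was at 3.47 and 4.8 CPM per kb in Mock and 25.8 and 26.4 in FeSO4, the latter only slightly above Fads1, and Fads3 was still last. The size of the gap between Fads2 and Fads1 in FeSO4 thus depends on the gene model. Among the 12773 tested genes with a length, the rank of Scd2 by level per kb was 837 in Mock and 216 in FeSO4.

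The 6 genes together took 0.068 and 0.0752% of gene counts in the Mock libraries and 0.186 and 0.191% in the FeSO4 libraries. Scd2 carried most of these counts, 54.9% (95% Wilson interval 54.3 to 55.5) and 57.8% (57.3 to 58.4) in Mock and 67.2% (66.8 to 67.5) and 69.1% (68.7 to 69.4) in FeSO4. The share of Degs1 went from 24.6 and 20.7% in Mock to 9.16 and 7.76% in FeSO4 while the groups overlapped in its own level. Fads2 made up 1.51 and 1.9% in Mock and 3.92 and 3.93% in FeSO4. The share of Fads1 was lower in FeSO4 (4.64 and 4.53%) than in Mock (8.44 and 7.49%) although its level was higher. Shares of a sum depend on each other. The intervals cover counting error only, and the Scd2 and Degs1 shares of replicates differed by more than that in both groups.

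**Figure D3:**
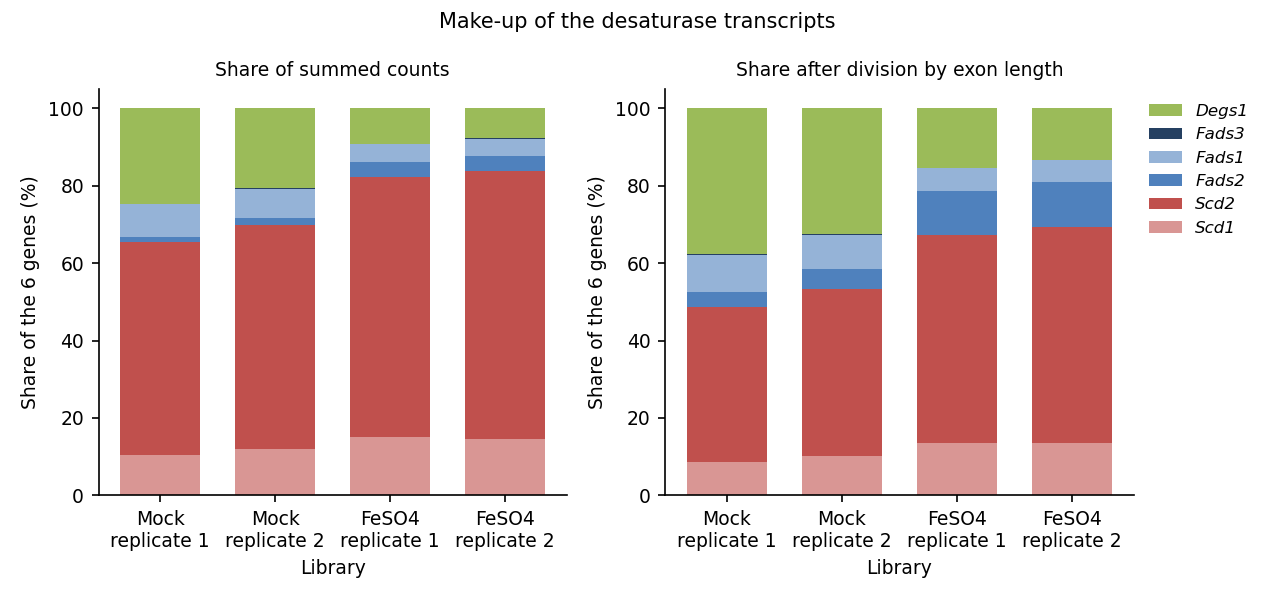
Share of each gene in the sum of the 6, in percent, per library (left, of counts; right, of CPM divided by exon length). The Scd2 segment is the largest in all 4 libraries on both scales, and the Degs1 segment shrinks from Mock to FeSO4 in either replicate.

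Genes whose levels followed each member most closely were sought over the 4 libraries. The measure was the Euclidean distance between log2 CPM profiles centred on their means, among genes of at least 10 CPM on average outside the 6. Nearest to Scd1 were Gpr15, a homing receptor of T cells (distance 0.155), and the agouti gene a (0.232). Nearest to Scd2 were a (0.15) and Egln3, a prolyl hydroxylase that marks HIF for degradation (0.196). Nearest to Fads2 were Iigp1, an interferon-inducible GTPase (0.358), and the glycolytic gene Aldoc (0.53). Nearest to Fads1 were Rdh11, a retinol dehydrogenase (0.0498), and Stard4, a cholesterol carrier (0.0509). Fads3 lay nearest to the cholesterol synthesis genes Nsdhl (0.0987) and Lss (0.124), and Degs1 to Eif2b5 (0.0202) and Pcbd2 (0.0264). With 13 to 28 counts per library, the profile of Fads3 is too uncertain to order its neighbours. With 4 libraries in 2 groups, such a profile holds little more than the size of the difference between the groups.

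The genes around the desaturases were taken from 7 lists of 108 genes, of which 107 had a row and 88 were tested. Of the 88, 28 rose and 7 fell with FeSO4 at an adjusted p under 0.05 over all genes (31.8 and 7.95%, beside 10.6 and 8.89% of all tested genes), and their median log2 fold change was 0.12. The share that fell was thus near that of all genes. Because the lists were chosen with earlier results of these data known, the share that rose is only described. In the lists of fatty acid synthesis and elongation 5 of 9 and 5 of 10 genes rose. In the ceramide list 2 of 20 rose and 1 fell (10 and 5%), near the shares of all genes.

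**Figure D4:**
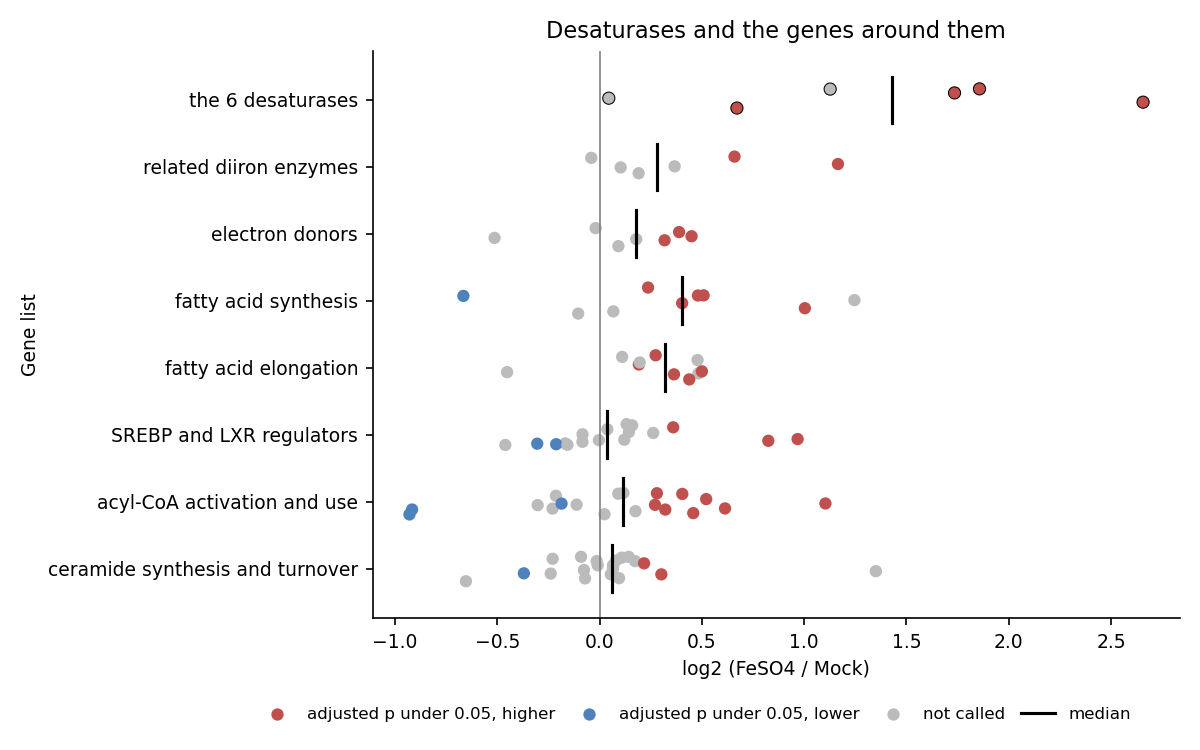
Log2 of FeSO4 over Mock for the 6 desaturases (top row) and for the tested genes of 7 lists, 1 point per gene (red, higher and blue, lower at an adjusted p under 0.05; grey, not called; black bars, medians; vertical position within a row is arbitrary). The desaturase median of 1.43 lies to the right of the medians of the 7 lists, which run from 0.038 to 0.4. Since the 6 desaturases were picked on this contrast, nothing is read from that difference.

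Of other enzymes built like the desaturases (membrane enzymes with a pair of iron atoms), 6 were tested, 2 were higher and 0 lower, with a median of 0.28. That is 33.3 and 0%, beside 10.6 and 8.89% of all tested genes. Both that rose belong to cholesterol synthesis. Msmo1, the C4 methylsterol oxidase (listed under its older symbol Sc4mol), was at 31.6 and 32.4 CPM in Mock, against 69.7 and 73.9 CPM in FeSO4. It rose by 1.17 ± 0.08 on the log2 scale (SE, edgeR adjusted p = 2.51e-07). Sc5d, the lathosterol desaturase, rose by 0.66 ± 0.08 (62.4 and 61.1 to 92.6 and 102 CPM, adjusted p = 3.69e-05). Degs2, the paralog of Degs1 that makes phytoceramide, was at 9.27 and 7.2 CPM in Mock, against 10.1 and 8.67 CPM in FeSO4 (0.19 ± 0.17, adjusted p = 0.489). Tmem189, the plasmalogen-forming desaturase (0.10 ± 0.08), Fads6 (-0.04 ± 0.41) and Scd4 (0.37 ± 0.71) did not pass either. Fa2h had 11 counts in Mock replicate 1 and 0 elsewhere, and Ch25h and Agmo had 0 counts.

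Among listed genes of cytochromes b5 and electron-passing reductases, 7 were tested, 3 were higher and 0 lower (median 0.18). The calls made up 42.9 and 0%, beside 10.6 and 8.89% of all tested genes. A role of each in desaturation was not tested. Cyb5b, the outer mitochondrial cytochrome b5, was at 144 and 139 CPM in Mock, against 196 and 190 CPM in FeSO4 (0.45 ± 0.06, edgeR adjusted p = 0.000193). Cyb5a, the cytochrome b5 of the endoplasmic reticulum, was at 111 and 107 CPM in Mock, against 151 and 133 CPM in FeSO4 (0.39 ± 0.07, adjusted p = 0.00198). The reductase gene Cyb5r1 passed narrowly (0.32 ± 0.10, adjusted p = 0.0443) and lost the threshold in 9 of 11 alternatives, with adjusted p up to 0.21. Cyb5r3, the main reductase of cytochrome b5, did not pass (46.5 ± 4.43 to 49.5 ± 2.21 CPM, SD, n = 2 each).

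Of the fatty acid synthesis genes, 9 were tested, 5 were higher and 1 lower (median 0.4). Mid1ip1, an activator of acetyl-CoA carboxylase, had the smallest p. Its level went from 21.2 and 19.4 CPM in Mock up to 41 and 40.4 CPM in FeSO4 (2-fold, adjusted p = 4.19e-06). Fasn, which makes the palmitate that elongation and Scd enzymes use, rose by 0.40 ± 0.07 (adjusted p = 0.000606). The citrate carrier Slc25a1 (0.51 ± 0.09) and acetyl-CoA carboxylase Acaca (0.48 ± 0.08) rose as well (adjusted p = 0.000866 and 0.00105). Acly, which splits citrate, and Acacb, the mitochondrial acetyl-CoA carboxylase, are named after their values were seen. Acly rose by 0.24 ± 0.07, and lost the threshold with library size only, without Mock replicate 1 and without FeSO4 replicate 1. Acacb fell by 0.67 on the log2 scale (12.4 and 13.3 to 8.23 and 8 CPM, adjusted p = 0.00492).

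Elongation genes act before and after the desaturases, and 10 were tested, with 5 higher and 0 lower (median 0.32). The shares were 50 and 0%, beside 10.6 and 8.89% of all tested genes. Hsd17b12 (0.44 ± 0.07), Tecr (0.36 ± 0.07) and Hacd2 (0.50 ± 0.12), which encode enzymes of the steps shared by all elongases, rose with adjusted p of 0.000852, 0.0019 and 0.00746. Hacd2 lost the threshold without Mock replicate 2 (adjusted p = 0.0589). Elovl1 rose by 0.27 ± 0.08 (adjusted p = 0.0274), and lost it with library size only, without Mock replicate 2 and without FeSO4 replicate 1 (log2 fold change 0.17 and adjusted p = 0.336 in the last). Elovl5, which elongates the product of Fads2 and is named after its values were seen, was at 182 and 179 CPM in Mock, against 202 and 211 CPM in FeSO4 (0.19 ± 0.06, adjusted p = 0.0426), and lost the threshold in 7 of 11 alternatives (log2 fold change 0.13 with library size only).

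Among regulators, 17 were tested, 3 were higher and 2 lower (17.6 and 11.8%, beside 10.6 and 8.89% of all tested genes, median 0.038). Srebf1, which encodes the SREBP form that drives fatty acid genes, was at 197 and 189 CPM in Mock, against 351 and 332 CPM in FeSO4 (0.82 ± 0.06, adjusted p = 5.78e-07). Insig1, which retains SREBP in the endoplasmic reticulum and is itself an SREBP target, was at 105 and 97.9 CPM in Mock, against 205 and 191 CPM in FeSO4 (0.97 ± 0.07, adjusted p = 2.51e-07). Srebf2 rose less (0.36 ± 0.06, adjusted p = 0.00061), and Scap, the escort of SREBP, fell by 0.30 (129 and 122 to 106 and 97.2 CPM, adjusted p = 0.00796). Scap lost the threshold without FeSO4 replicate 2. Rxrb, a partner of LXR named after its values were seen, fell by 0.21 (adjusted p = 0.049), and lost the threshold without any 1 of the 4 libraries and with all genes of at least 1 count (adjusted p up to 0.242). The LXR genes Nr1h2 and Nr1h3 and the genes of the promoter factors NF-Y and Sp1 were not called.

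Of the genes that activate acyl chains or use them, 19 were tested, 8 were higher and 3 lower (median 0.12). These were 42.1 and 15.8%, beside 10.6 and 8.89% of all tested genes. Acsl3, an acyl-CoA synthetase, was at 24.6 and 26.7 CPM in Mock, against 53.9 and 56.4 CPM in FeSO4 (1.10 ± 0.09, adjusted p = 9.61e-07). Dbi, an acyl-CoA binding protein (0.61 ± 0.07), and Acsl4, which prefers arachidonate (0.52 ± 0.08), rose too (adjusted p = 2.17e-05 and 0.000273). Cpt1a, which takes acyl chains into mitochondria for oxidation, was at 216 and 200 CPM in Mock, against 116 and 105 CPM in FeSO4, and fell by 0.92 (adjusted p = 7.61e-07). Plin2 and Agpat3, named after their values were seen, fell by 0.93 and 0.19 (adjusted p = 0.0259 and 0.0465). Plin2, which coats lipid droplets, had 338 counts in Mock replicate 1 and 189 in Mock replicate 2, and was no longer called without Mock replicate 1, without FeSO4 replicate 1 or with limma-voom. Its log2 fold change was -0.43 without Mock replicate 1, and over the alternatives it reached -1.30. Agpat3 lost the threshold without any 1 of the 4 libraries and with all genes of at least 1 count.

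In the ceramide list, to which the reaction of Degs1 belongs, 20 genes were tested, 2 were higher and 1 lower (median 0.06). The ceramide synthase gene Cers2 (0.22 ± 0.06) and the acid ceramidase gene Asah1 (0.30 ± 0.09) rose (adjusted p = 0.026 and 0.0217). Cers2 lost the threshold without any 1 of the 4 libraries and with library size only. Asah1 lost it with library size only, without Mock replicate 2 and without FeSO4 replicate 1. Cerk, the ceramide kinase, fell by 0.37 (112 and 118 to 82.7 and 95.7 CPM, adjusted p = 0.00427) and lost the threshold without FeSO4 replicate 1. Subunits of serine palmitoyltransferase, which begins the pathway, were not called (Sptlc1 0.14 ± 0.09, Sptlc2 0.07 ± 0.07).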

How the data were processed

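Per the labels' processing notes, the authors trimmed reads with Trim Galore 0.6.7, aligned them with STAR 2.7.9a to mm10 and counted them with featureCounts. The methods name mm9 instead, and the strand setting and annotation are not given in the sources used here. The deposited values are raw counts per Ensembl gene and library. The 5 rows of reads not assigned to a gene (15.9 to 17.3% of a library, with 4.27 to 4.62% aligned to more than 1 place) were left out; they carry the names htseq-count writes. Symbols matched 32799 of 47729 gene rows. Positions and promoters are from RefSeq (GRCm38.p6), and exon lengths are unions of exons in GENCODE M1 (NCBIM37).

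The test across genes was that of edgeR 4.0.16 (R 4.3.3): filterByExpr with the group (13732 genes), TMM scaling, and the quasi-likelihood F test with Benjamini-Hochberg adjustment over all tested genes. Standard errors were derived from the F statistic, as the absolute log2 fold change over the root of F. Alternatives were DESeq2 1.42.0, limma-voom (limma 3.58.1), other scalings and filters, a replicate block, other call rules, and each library left out. The fit was tested on simulated data. Replicates differed by more than sampling noise (chi-square per degree of freedom 11.3 in Mock and 9.02 in FeSO4).

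The members, the 7 lists and the tests were chosen with earlier results of these data known. Named are the 6 members, every related diiron enzyme with a row, up to 4 called genes of smallest p per other list, and the 2 nearest genes of each member. All other list genes named were chosen after their values were seen, those not called (Cyb5r3, LXR, NF-Y, Sp1 and Sptlc genes) included.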

Additional observations from a re-analysis of the deposited data

How the results depend on the processing

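The calls of the 6 desaturases (4 higher, 0 lower) were the same under all alternatives run, and Scd1, Scd2, Fads1 and Fads2 were each called in 11 of 11 refits and Fads3 and Degs1 in 0. The members were picked on this same contrast, so the stability of their calls is a description only. Over the settings other than left-out libraries, the log2 fold change ran from 1.79 to 1.87 for Scd1, 1.67 to 1.74 for Scd2, 0.61 to 0.67 for Fads1 and 2.59 to 2.67 for Fads2. With each library left out it ran from 1.69 to 2.04, 1.62 to 1.85, 0.66 to 0.68 and 2.43 to 2.92. That of Degs1 turned to -0.020 with library size only, and ran from -0.059 to 0.15 with each library left out, being -0.0047 without Mock replicate 2. Over all genes, library size only gave 939 higher genes, an adjusted p under 0.01 gave 755 higher and 584 lower, and the study's rule (a log2 change of 0.5 or more in either direction and p under 0.05 without adjustment) gave 614 and 766. With each library left out, 927 to 1159 genes were higher and 799 to 1030 lower, the fewest without FeSO4 replicate 1. Of the list genes, 11 were lower with library size only, 4 at an adjusted p under 0.01, and 10 were higher and 3 lower by the study's rule. With each library left out, 4 to 7 list genes were lower, 4 without either FeSO4 library. The cause was not tested, except that an adjusted p under 0.01 leaves fewer calls by construction. The study's rule changed both the adjustment and the threshold on the fold change, so its counts cannot be put down to either. Per kb instead of per count, the mean shares of the 6 were 41.6% in Mock and 54.9% in FeSO4 for Scd2, 9.37 and 13.5% for Scd1, 9.26 and 5.83% for Fads1, 4.56 and 11.4% for Fads2, 0.0596 and 0.0519% for Fads3, and 35.2 and 14.3% for Degs1, because the genes differ in length; the Fads2 share per kb rests on the short gene model named above.

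With the replicate number as a block, 4 desaturases were called higher and 0 lower, 29 and 8 list genes, and 1743 and 1467 of all genes. Without the block, 1455 and 1221 of all genes were. The SE with the block was smaller for each member but Fads3 (0.63, against 0.58 without). Deviations of same-numbered libraries from their group means correlated at 0.029 across 13732 genes, which are not independent, so the numbers were not taken as a pairing. Fads3, with 13 to 28 counts per library, is the member whose value is most limited by depth.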
